A study of Mus musculus with 6 samples.

Results

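Chemokines are small secreted proteins that guide the migration of blood cells, and their receptors are G protein-coupled proteins on the surface of the responding cell. The genes described here are the 57 mouse genes, 38 ligands and 19 receptors, whose symbols follow the chemokine nomenclature (Ccl, Cxcl, Ccr and Cxcr with a number, plus Cx3cl1, Cx3cr1, Xcl1, Xcr1 and Ccrl2), out of 46983 genes in the count tables. The ligand families are named for the spacing of conserved cysteines. CC ligands mainly attract monocytes, macrophages, eosinophils and lymphocytes, many CXC ligands attract neutrophils, and CXCR4 with its ligand CXCL12 keeps progenitors and immature neutrophils in the marrow. Monocytes, macrophages, mast cells and basophils are also known to make chemokines themselves when they are activated.

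The measurements were mRNA read counts from myeloid colonies. Lineage-depleted marrow progenitors of C57BL/6 mice, 8 to 11 weeks old by the age label, were grown in methylcellulose that held stem cell factor, IL-3 and IL-6, and colonies were collected 6 to 7 days later. The 3 KO samples carry the label Psip1-KO and the design text gives their allele as PsipVav/Vav. The 3 WT samples carry the label wild type, while the design text gives them as PsipFl/Fl, a floxed Psip1 allele. The labels do not spell out the Cre line, do not say whether samples of 1 group came from separate animals, and give no batch, so the p-values reflect variation between these libraries that may be technical. Psip1 encodes LEDGF, a chromatin reader, and the series title asks whether it is needed in normal blood formation.

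KO libraries held 12714022, 7056614 and 15569088 reads on genes, against 14332364, 10418101 and 27909 in WT libraries. WT replicate 3 is thus far too shallow to give levels of single genes. Levels are given as CPM, the read count scaled for library depth. In WT replicate 3 a single read was worth 29.9 CPM, and a gene with 0 reads there could still stand at 89.6 CPM (3 reads). Its values are given as reads, and the other 5 libraries are called the deep ones. Psip1 stood at 14.8, 17.6 and 16.3 CPM in KO, against 89.3 and 70.0 CPM in the deep WT libraries and 3 reads in WT replicate 3, so the targeted gene was lower in every KO library than in both deep WT libraries (log2 fold change -2.32, SE 0.32, adjusted p = 0.0599 by the test described next). The count covers the whole gene, deleted exons or not. Mitochondrial reads made up 15.7% of gene reads in KO replicate 2, 9.52% in WT replicate 3 and 1.26% to 1.84% in the other 4 libraries. Xist was abundant in KO replicate 1 and WT replicate 2, and Eif2s3y, a gene of the Y chromosome, had reads only in the other 4 libraries, so each genotype held libraries of both kinds. Of the T and NK cell markers, Cd3e, Cd3g and Cd8a (3 of 10) had 0 reads in every library, and Gzmb supplied nearly all of a sum of 208 to 384 CPM in KO and 270.04 to 542 CPM in the deep WT libraries. Of the B cell markers, Ms4a1 (1 of 6) had 0 reads, and the sum was 20.5 to 58.1 CPM in KO and 31.9 to 81.9 CPM in WT. In contrast, neutrophil, mast cell, basophil and monocyte markers were abundant in both genotypes.

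No chemokine or receptor gene passed the test for a difference between KO and WT colonies. Of the 57 genes, 42 had at least 1 read in any library and 24 (16 ligands and 8 receptors) had enough reads to be tested, and 0 of these 24 passed an adjusted p of 0.05 in edgeR's quasi-likelihood test, where 0.0% of all 12292 tested genes passed. At an unadjusted p under 0.05 the count was again 0 of 24, against 1.45% of all tested genes (1.24% higher and 0.212% lower in KO). DESeq2, which kept 42 members, called 0 of them at either level, against 0.0045% of all its genes at the adjusted and 0.171% at the unadjusted one. The members' count at the adjusted threshold was 0 under every other setting too. The share of all genes called was 0.054% with DESeq2 without WT replicate 3, 0.0405% with no filter on low counts and 0.106% with the replicate number as a block. Without KO replicate 1 it was 0.016%, without KO replicate 3 or WT replicate 1 0.0399%, without WT replicate 2 0.0236%, and 0.0% under the other settings. The log2 fold changes of KO over WT ran from -2.40 to 1.22, with 11 above and 13 below 0 and a median of -0.06, beside a median of 0.01 over all tested genes. In no tested member did the 3 KO libraries lie wholly above the 2 deep WT libraries or wholly below them. Among all tested genes 4.79% lay wholly above and 3.87% wholly below.

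**Figure D1:**
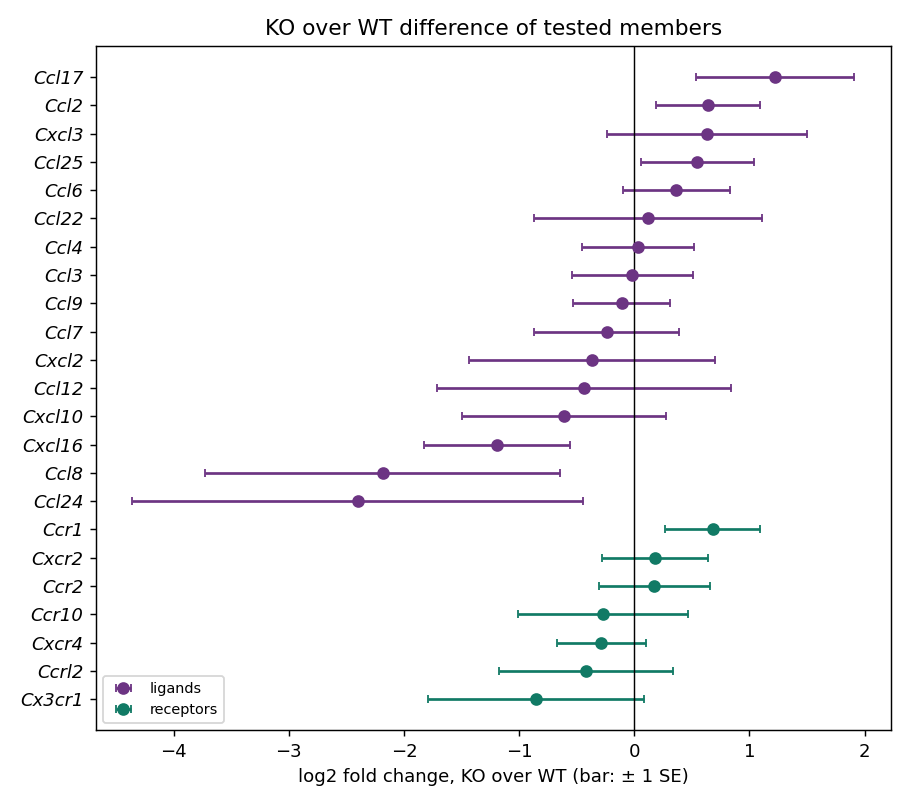
Log2 fold change of KO over WT (x axis, with bars of 1 standard error from edgeR's quasi-likelihood fit over all 6 libraries) for 16 tested ligands above and 7 tested receptors below. The values run from -2.40 for Ccl24 to 1.22 for Ccl17, and the widest bars belong to Ccl24 and Ccl8.

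Chemokine and receptor genes varied more between libraries than most genes did, within a genotype as well. Over the 5 deep libraries the gap between the highest and the lowest log2 CPM had a median of 2.04 across the 24 tested members and of 0.94 across all tested genes. Within the KO group alone the medians were 1.82 and 0.71, and between the 2 deep WT libraries 0.84 and 0.56. The median standard error of a fold change was 0.63 for the members and 0.42 for all tested genes. These medians describe the libraries and carry no test. In bulk colonies, fewer cells of a type and less RNA per cell cannot be told apart.

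Ligand transcripts far outnumbered receptor transcripts. All members together took 0.424%, 0.707% and 0.389% of gene reads in KO replicates 1, 2 and 3, against 0.418% and 0.488% in the deep WT libraries and 0.613% in WT replicate 3 (171 reads, 95% Wilson interval 0.528% to 0.711%, counting error only). Ligands made up 80.2% to 87.7% of those reads in KO and 84.0% to 88.9% in WT. A single gene, Ccl6, supplied 59.9%, 54.6% and 43.4% of member reads in KO and 41.5%, 56.0% and 40.4% in WT (69 of 171 reads in WT replicate 3, interval 33.3% to 47.8%). The 2 genotypes overlapped in each of these shares.

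**Figure D2:**
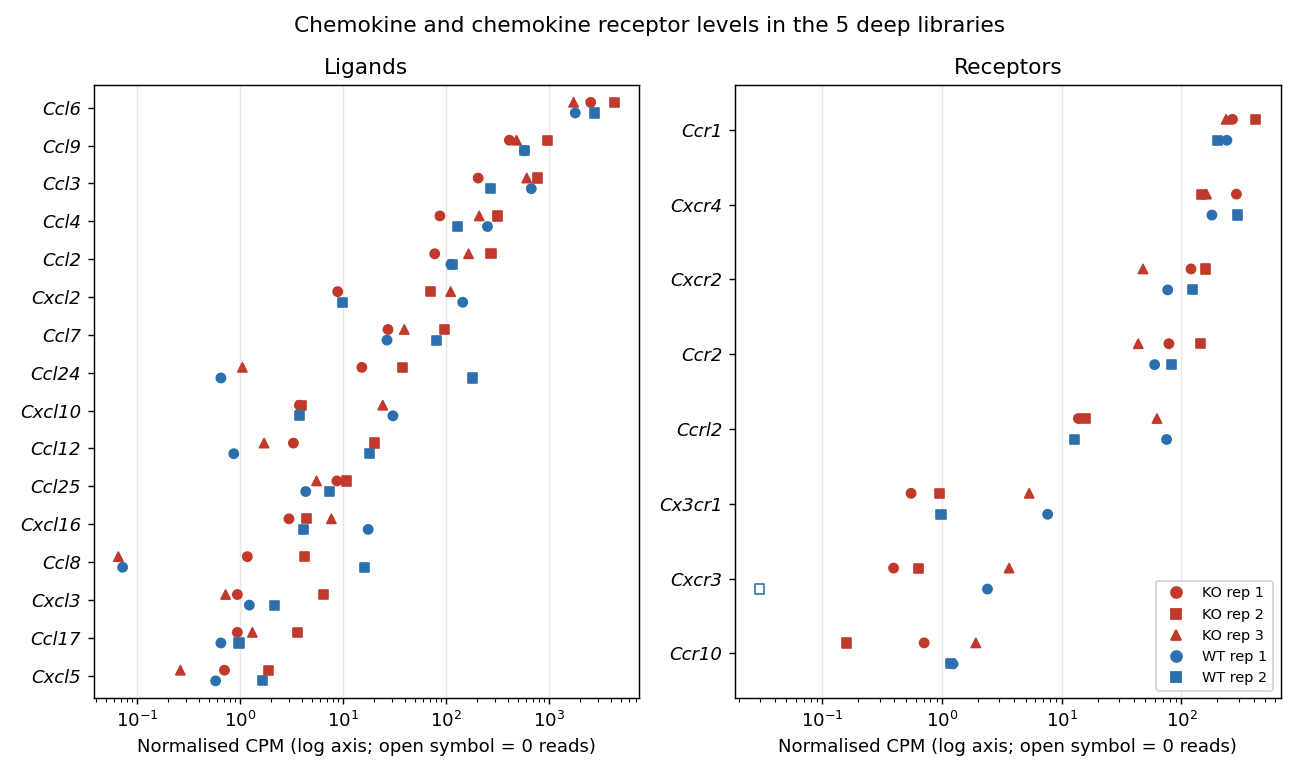
Normalised CPM on a log axis for 16 ligands and 8 receptors with a mean of at least 1 CPM over the 5 deep libraries, with KO libraries in red and WT libraries in blue and the symbol shape giving the replicate number. An open symbol stands for 0 reads and is drawn at the left edge. Ccl6 is the highest ligand in all 5 libraries, also per kilobase of exon, and the points of Ccl24, Ccl8, Ccl12 and Cxcl2 lie furthest apart among the tested genes.

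The leading transcripts came from 1 stretch of chromosome 11. Per kilobase of exon, so that genes of different length can be compared, the 4 highest members were Ccl6 (mean of 1468 CPM per kb over the deep libraries), Ccl3 (662), Ccl4 (303) and Ccl9 (199). They follow one another among the members on chromosome 11, between positions 83572919 and 83664683 (GRCm38). Ccl6 and Ccl9, made by rodent macrophages and other myeloid cells, act through CCR1. Ccl3 and Ccl4 are the macrophage inflammatory proteins that attract monocytes and lymphocytes, and Ccl3 also acts through CCR1. Ccl6 stood at 2542, 4306 and 1735 CPM in KO replicates 1, 2 and 3, a mean of 2861 ± 1310 (SD, n = 3), against 1801 and 2789 CPM in the deep WT libraries. KO replicate 2 was the highest, KO replicate 1 lay between the WT libraries and KO replicate 3 just below them, so the groups overlapped (log2 fold change 0.37, SE 0.47, adjusted p = 1.00). Ccl9 stood at 413, 976 and 485 CPM in KO, against 579.5 and 581 CPM in WT, with KO libraries on both sides of the WT pair.

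Ccl3 and Ccl4 followed each other from library to library. Ccl3 stood at 206, 775 and 609 CPM in KO, against 674 and 273 CPM in WT, with 24 reads in WT replicate 3. Ccl4 stood at 87.4, 319 and 210.3 CPM in KO, against 253 and 130.4 CPM in WT, with 8 reads in WT replicate 3. Both were lowest in KO replicate 1 and next lowest in WT replicate 2, and highest in KO replicate 2 and WT replicate 1. Their neighbour Ccl5, the lymphocyte-attracting chemokine RANTES, was nearly silent, with 1, 0 and 13 reads in KO and 5, 1 and 0 in WT.

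A second group of CC ligands on the same chromosome, between positions 82035571 and 82305690, was more uneven. Ccl2, the main monocyte attractant and a ligand of CCR2, stood at 77.8, 274 and 166 CPM in KO, against 112 and 116 CPM in WT. Its log2 fold change was 0.64 (SE 0.45, adjusted p = 1.00), and KO replicate 1 lay below both deep WT libraries while the other 2 KO libraries lay above them. Ccl7, which also binds CCR2, stood at 27.4, 97.3 and 39.4 CPM in KO, against 26.8 and 81.2 CPM in WT. Ccl12, the third CCR2 ligand, stood at 3.30, 20.2 and 1.72 CPM in KO, against 0.871 and 18.1 CPM in WT. Ccl8, whose mouse form acts through CCR8, had 15, 27 and 1 reads in KO, against 1, 165 and 0 in WT. For Ccl7, Ccl12 and Ccl8 the highest values lay in KO replicate 2 and WT replicate 2, 1 library of each genotype. Ccl11, the eosinophil attractant eotaxin, had 0 reads in every library, and Ccl1, a ligand of CCR8, had 3, 6 and 4 reads in KO and 3, 3 and 0 in WT.

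**Figure D3:**
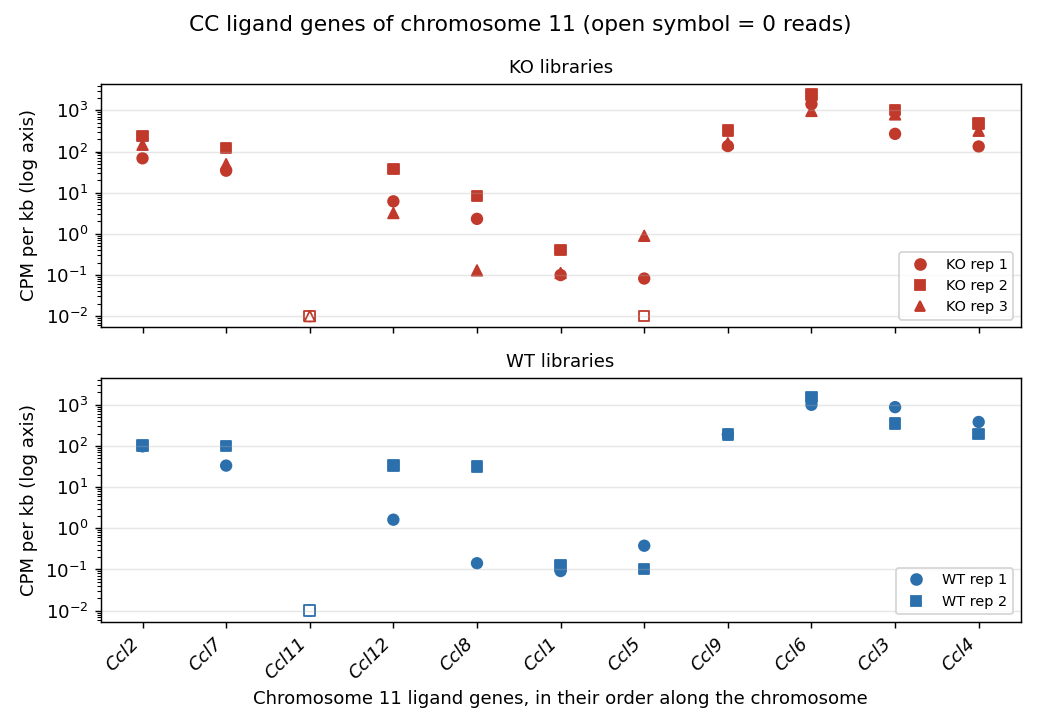
CPM per kilobase of exon (log axis) for the 11 CC ligand genes of chromosome 11, in their order along the chromosome but not to scale, with the 3 KO libraries above and the 2 deep WT libraries below. Open symbols stand for 0 reads and are drawn at 0.01. In both panels Ccl9, Ccl6, Ccl3 and Ccl4 at the right are high, Ccl1 and Ccl5 are low, Ccl11 is at 0, and Ccl12 and Ccl8 lie far apart between libraries of 1 genotype.

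Ccl24, or eotaxin-2, which attracts eosinophils through CCR3 and lies on chromosome 5, varied more than any other tested member, by 7.73 log2 units over the deep libraries. It had 194, 241 and 16 reads in KO, against 9, 1859 and 4 in WT, or 15.3, 38.1 and 1.06 CPM in KO and 0.653 and 182 CPM in the deep WT libraries. The 4 reads in WT replicate 3 came to 119 CPM, above each KO library, though so few reads give only a rough level. Its log2 fold change of -2.40 (SE 1.96, adjusted p = 1.00) became 3.22 (SE 4.08) when WT replicate 2 was left out. Ccl8, at -2.18 (SE 1.54), became 4.35 (SE 1.98, adjusted p = 1.00) without WT replicate 2. The macrophage complement genes C1qa, C1qb and C1qc were also highest in WT replicate 2. C1qa stood at 0.944, 1.74 and 0.792 CPM in KO and at 2.25 and 9.60 CPM in WT, C1qb at 9.99, 19.3 and 3.10 CPM in KO and at 12.3 and 41.0 CPM in WT, and C1qc at 6.14, 13.3 and 3.04 CPM in KO and at 8.35 and 24.3 CPM in WT. Of their marker list, C1qa (log2 fold change -2.35, SE 0.67) and F13a1 (-1.42, SE 0.43) had unadjusted p under 0.05 in edgeR's quasi-likelihood test. The adjusted p was 1.00 for each. The whole monocyte and macrophage list (12 of 12 genes read) summed to 1835, 1719.8 and 2468 CPM in KO, against 2289 and 1772 CPM in WT. That sum was thus highest in KO replicate 3, and lower in WT replicate 2 than in WT replicate 1. The C1q genes were picked with their values known, and their part in the levels of Ccl24 and Ccl8 was not tested. Ccr3, the receptor for Ccl24, had 2, 3 and 5 reads in KO and 10, 2 and 0 in WT.

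Cxcl2 and Cxcl10 on chromosome 5 and Cxcl16 on chromosome 11 had other highest libraries than Ccl24 and Ccl8. Cxcl2, a neutrophil attractant that acts through CXCR2, stood at 8.89, 70.2 and 111 CPM in KO, against 145 and 9.89 CPM in WT, a 14.7-fold gap between the 2 deep WT libraries. Cxcl10, an interferon-inducible ligand of CXCR3, stood at 3.78, 3.95 and 24.3 CPM in KO, against 30.6 and 3.82 CPM in WT (log2 fold change -0.61, SE 0.89). Cxcl16, which occurs as a membrane-bound and a soluble form and binds CXCR6, stood at 2.99, 4.43 and 7.72 CPM in KO, against 17.6 and 4.11 CPM in WT. All 3 were highest in KO replicate 3 and WT replicate 1. Cxcl16 had the lowest unadjusted p of all members on the lower side (log2 fold change -1.19, SE 0.63, adjusted p = 1.00), and without WT replicate 1 its log2 fold change was 0.059 (SE 0.76). Cxcl10 and Cx3cr1 changed sign without WT replicate 1 too, to 1.59 (SE 1.07) and 1.33 (SE 1.09). Among the members, the other neutrophil-attracting CXC ligands beside Cxcl2, between positions 90759360 and 90893115 of chromosome 5, were scarce. None of them had KO replicate 3 and WT replicate 1 as its 2 highest libraries. Ppbp, a CXC ligand outside the symbol rule, was not scarce and is given below. Cxcl3 had 12, 41 and 11 reads in KO and 17, 22 and 0 in WT, Cxcl5 had 9, 12 and 4 in KO and 8, 17 and 0 in WT, and Cxcl1 had 0, 11 and 3 in KO and 6, 3 and 0 in WT.

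Promoter stretches are shown for some of the ligands that lead these patterns, and not for Ccl4 or Ccl24. Ccl6, Ccl9 and Ccl3 are the abundant ones, Cxcl2 and Cxcl10 were highest in KO replicate 3 and WT replicate 1, and Ccl8 and Ccl12 were highest in KO replicate 2 and WT replicate 2. Each is the 120 bases before the more upstream of the RefSeq and GENCODE starts, 5′ to 3′ on the gene's strand, from RefSeq (GRCm38.p6), with motif matches in capitals.
Ccl6 (chr11:83593088-83593207, minus strand): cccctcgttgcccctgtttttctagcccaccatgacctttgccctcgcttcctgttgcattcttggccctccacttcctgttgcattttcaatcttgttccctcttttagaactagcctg
Ccl9 (chr11:83578637-83578756, minus strand): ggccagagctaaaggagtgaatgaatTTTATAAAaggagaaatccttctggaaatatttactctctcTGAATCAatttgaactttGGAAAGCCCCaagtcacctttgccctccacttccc
Ccl3 (chr11:83649379-83649498, minus strand): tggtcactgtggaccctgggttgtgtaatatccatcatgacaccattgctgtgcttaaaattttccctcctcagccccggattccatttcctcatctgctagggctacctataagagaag
Cxcl2 (chr5:90903751-90903870, plus strand): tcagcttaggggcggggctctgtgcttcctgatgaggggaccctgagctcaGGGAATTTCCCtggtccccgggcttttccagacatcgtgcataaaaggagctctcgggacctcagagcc
Cxcl10 (chr5:92348890-92349009, minus strand): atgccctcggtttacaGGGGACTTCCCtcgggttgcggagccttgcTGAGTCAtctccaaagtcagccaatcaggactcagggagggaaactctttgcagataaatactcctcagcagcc
Ccl8 (chr11:82115065-82115184, plus strand): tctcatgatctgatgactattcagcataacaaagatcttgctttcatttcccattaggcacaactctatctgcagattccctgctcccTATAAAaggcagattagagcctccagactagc
Ccl12 (chr11:82101725-82101844, plus strand): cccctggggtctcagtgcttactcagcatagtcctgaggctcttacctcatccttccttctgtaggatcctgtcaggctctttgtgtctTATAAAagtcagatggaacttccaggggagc
Motifs were searched on both strands of the 250 bases before each RefSeq start. They were an NF-kB site, the TATA box TATAAA and the AP-1 core, which is TGANTCA. An interferon-response core was searched as GAAA and the same letters again after any 2 bases. The CREB site was searched as TGACGTCA. In the Ccl9 stretch 2 matches to TATAAA, 1 on each strand, overlap in the first capital run, the second run is TGANTCA and the third an NF-kB match. The run of Cxcl2 and the first run of Cxcl10 each hold 2 overlapping NF-kB matches, the second run of Cxcl10 is TGANTCA, and the runs of Ccl8 and Ccl12 are TATAAA. The Ccl6 and Ccl3 stretches hold 0 matches. In the searched bases before the printed stretch, Cxcl10 also had an interferon-response core and an NF-kB match. Ccl9 had a further TATAAA match there. Over the 51 promoter windows that RefSeq gives for 42 of the members, 21.6% held an NF-kB match, against 7.25% of all 32851 windows. The shares were 23.5% against 12.4% for TATAAA, 11.8% against 6.75% for TGANTCA, 5.88% against 2.98% for the GAAA pair and 0.0% against 1.55% for TGACGTCA. Windows of 1 gene can overlap, and a match is a description of the letters only.

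Ccl17, Ccl22 and Ccl25 were low. Ccl17, a dendritic cell and macrophage product that binds CCR4, had 12, 23 and 20 reads in KO and 9, 10 and 0 in WT, or 0.944, 3.64 and 1.32 CPM in KO and 0.653 and 0.979 CPM in WT. It had the lowest unadjusted p on the higher side (log2 fold change 1.22, SE 0.69, adjusted p = 1.00), with KO replicate 1 just below WT replicate 2. Without KO replicate 2 the log2 fold change was 0.48 (SE 0.61). Ccl22, the other CCR4 ligand, had 11, 5 and 14 reads in KO and 0, 17 and 0 in WT. Ccl25, which draws thymocytes and gut lymphocytes through CCR9, stood at 8.73, 10.9 and 5.54 CPM in KO, against 4.35 and 7.34 CPM in WT (log2 fold change 0.55, SE 0.49). Its exons overlap those of Elavl1 on the opposite strand, and the deposited count of the other strand held 2 reads for Ccl25 in all libraries together. Cx3cl1, the ligand of CX3CR1, had 3, 3 and 11 reads in KO and 5, 7 and 0 in WT, and Ccl27a, Ccl28, Cxcl11, Cxcl14 and Xcl1 had at most 11 reads in any library. The homeostatic ligands of lymph node, gut and skin, Ccl19, Ccl20, Ccl21a, Ccl21b, Ccl27b and Cxcl13, had 0 reads in every library, as had Ccl26, Cxcl9, Cxcl15 and Cxcl17. Ccl21a, Ccl21b, Ccl27a and Ccl27b have near-identical copies, so their counts are uncertain. Cxcl12, the ligand of CXCR4 that marrow stroma makes, also had 0 reads, which allows up to 0.198 to 0.475 CPM in the KO libraries and 0.218 to 0.294 CPM in the deep WT libraries.

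Of the 16 receptor genes with reads, 10 lie on chromosome 9, among them Ccr1, Ccr3 and Ccr2 between positions 123962124 and 124113557. Among the receptors, Cxcr4 (chromosome 1, positions 128588199 to 128592293) and Ccr1 were the most abundant per length, with means of 118 and 96.0 CPM per kb. Cxcr4, which holds progenitors and neutrophils in the marrow, stood at 288, 146 and 162 CPM in KO, a mean of 198.7 ± 77.7 (SD, n = 3), against 179.6 and 293 CPM in WT and 9 reads in WT replicate 3. The log2 fold change was -0.29 (SE 0.39, adjusted p = 1.00). KO replicate 1 and WT replicate 2 were the 2 highest libraries, as they were for 19.4% of all tested genes. These 2 libraries also held the most neutrophil marker RNA and were the 2 with abundant Xist. The summed neutrophil list (12 of 12 genes read) came to 89737, 41676 and 35746 CPM in KO and to 45293 and 100458 CPM in the deep WT libraries. Neither its part in the Cxcr4 level nor that of the Xist difference was tested.

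Ccr1, the receptor of monocytes and neutrophils for Ccl3, Ccl6 and Ccl9, stood at 267, 417 and 236 CPM in KO, a mean of 306.7 ± 96.9 (SD, n = 3), against 239.6 and 200.04 CPM in WT. Of the receptors it had the lowest unadjusted p (log2 fold change 0.68, SE 0.41, adjusted p = 1.00), and KO replicate 3 lay just below WT replicate 1. WT replicate 3 held 2 Ccr1 reads, and without that library the log2 fold change was 0.48 (SE 0.34). Ccr2, the monocyte receptor for Ccl2, Ccl7 and Ccl12, stood at 78.5, 145 and 43.5 CPM in KO, against 59.7 and 82.3 CPM in WT (log2 fold change 0.17, SE 0.48). Cxcr2, the neutrophil receptor for Cxcl2, stood at 120.2, 158 and 47.7 CPM in KO, against 76.8 and 124 CPM in WT (log2 fold change 0.18, SE 0.46). For Ccr2 and Cxcr2 the WT pair fell inside the KO range.

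Several low-level receptors were highest in the same libraries as Cxcl10. Ccrl2, an atypical receptor that binds chemerin without signalling, stood at 13.8, 15.7 and 62.4 CPM in KO, against 75.1 and 12.7 CPM in WT. Cx3cr1, the fractalkine receptor of monocytes and macrophages, stood at 0.551, 0.949 and 5.34 CPM in KO, against 7.62 and 0.979 CPM in WT (log2 fold change -0.85, SE 0.94, adjusted p = 1.00). Cxcr3, the receptor for Cxcl10, had 5, 4 and 55 reads in KO and 33, 0 and 0 in WT. With reads mostly in KO replicate 3 and WT replicate 1, it did not pass the filter on low counts and was not tested. KO replicate 3 and WT replicate 1 held the 2 highest values for each of these 3, a pair that was also the commonest among all tested genes (29.3%). Ccr10, a receptor of skin-homing T cells and plasma cells, had 9, 1 and 29 reads in KO and 17, 12 and 0 in WT. Ccr6, Ccr8 and Cxcr6, receptors best known from lymphocytes, had 0 reads in every library, and the lymphocyte and dendritic cell receptors Ccr4, Ccr7, Ccr9, Cxcr5 and Xcr1 and the neutrophil receptor Cxcr1 had at most 11 reads in any library.

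**Figure D4:**
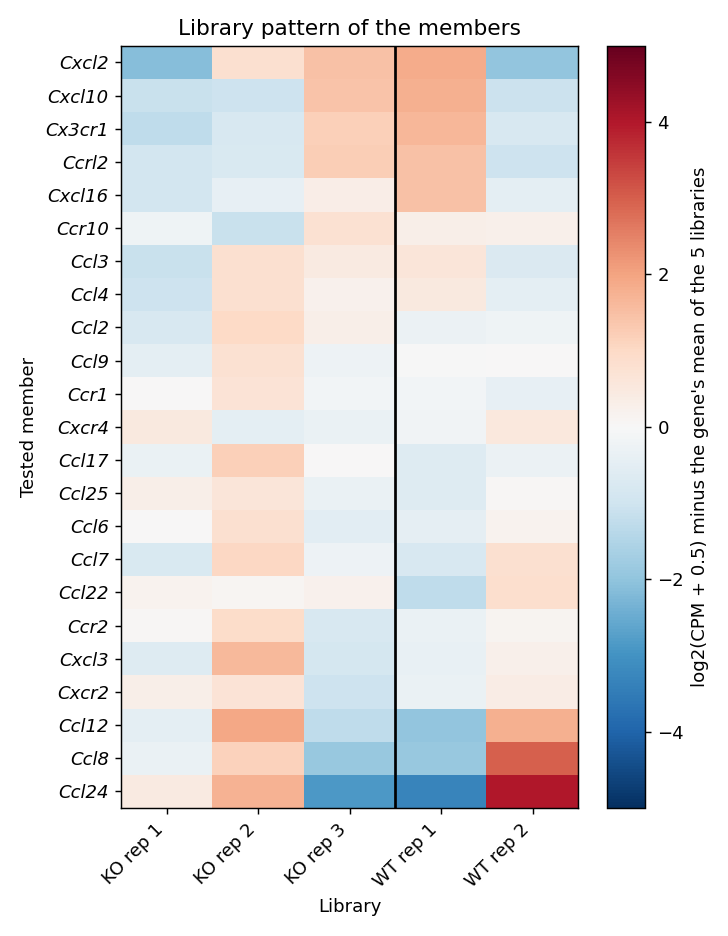
Difference of log2(CPM + 0.5) from each gene's own mean over the 5 deep libraries, for 23 tested members (rows) in the 3 KO libraries and, right of the black line, the 2 deep WT libraries. Red is above and blue below the gene's mean. Cxcl2, Cxcl10, Cx3cr1 and Ccrl2 are red in KO replicate 3 and WT replicate 1, whereas Ccl24, Ccl8 and Ccl12 are red in KO replicate 2 and WT replicate 2.

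Counting, for each tested member, which 2 of the 5 deep libraries were highest sums up the pattern. KO replicate 2 and WT replicate 2 were the highest pair for 9 of the 24 members (37.5%, against 15.1% of all tested genes), namely Ccl6, Ccl7, Ccl8, Ccl9, Ccl12, Ccl24, Ccr2, Cxcl3 and Cxcr2. KO replicate 3 and WT replicate 1 were the highest pair for 6 (25.0%, against 29.3% of all tested genes), namely Ccr10, Ccrl2, Cx3cr1, Cxcl2, Cxcl10 and Cxcl16. KO replicate 1 and WT replicate 2 were the highest pair for 1 member, Cxcr4 (4.17%, against 19.4% of all tested genes). Both deep WT libraries were the highest pair for 0 members, against 3.87% of all tested genes. KO replicate 1 was among the 2 highest libraries for 4 members (16.7%, against 34.5% of all tested genes). KO replicate 2 was among the 2 highest libraries for 16 members (66.7%, against 39.5% of all tested genes) and was also the library with 15.7% mitochondrial reads, whose part in these levels was not tested. These counts describe 5 libraries and carry no test. Summed basophil markers were also highest in KO replicate 2 and WT replicate 2. They came to 1463, 4492 and 1000 CPM in KO and to 2351 and 3001 CPM in the deep WT libraries. So were the summed dendritic cell, erythroid, and stromal and endothelial markers highest in that pair. Summed mast cell markers came to 2215, 6332 and 3922 CPM in KO and to 4501 and 2521 CPM in WT. The part of these cells in the members' levels was not tested.

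Chemokine genes outside the symbol rule did not pass the test either. Pf4 and Ppbp, the platelet chemokines CXCL4 and CXCL7, stood at 226, 145 and 42.8 CPM and at 152, 38.8 and 34.7 CPM in KO, against 56.7 and 258 CPM and 54.0 and 137 CPM in the deep WT libraries. Their log2 fold changes were -0.36 (SE 0.67) and -0.28 (SE 0.60), and 0 of the 4 tested genes of that list passed edgeR's quasi-likelihood test in either direction. The atypical receptor gene Ackr1 was at 0.31 (SE 0.66). Of 27 genes that carry the signal from the receptors, all tested, 0 passed in either direction. Their log2 fold changes had a median of 0.08, with 18 above and 9 below 0. The lowest p there belonged to Plcb3, a phospholipase C (0.38, SE 0.33), Prkcd, a protein kinase C (0.34, SE 0.42), and Ptk2b, a focal adhesion kinase (0.27, SE 0.36). Of 13 tested genes that switch receptors off, such as arrestins, receptor kinases and RGS proteins, 0 passed in either direction. Their median was 0.00, with 7 above and 6 below 0. The lowest p there belonged to Grk3 (0.34, SE 0.37), Rgs1 (0.57, SE 0.75) and Rgs2 (-0.18, SE 0.36). In each of the 3 lists 0 genes had an unadjusted p under 0.05, and DESeq2 called 0. Among all tested genes 0.0% passed the adjusted threshold and 1.45% the unadjusted one, and DESeq2 called 0.0045% of its genes.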

How the data were processed

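Stranded poly(A) RNA libraries of 3 KO and 3 WT samples were counted per gene. The deposited counts are raw reads per gene, 1 file per sequencing run, made with STAR 2.5.1b and GRCm38 per the submitters' processing notes, which also list DESeq2. No source used here names the annotation release. Column 4, for reads on the reverse strand, was taken, as the kit in the labels' protocols reverses strand. It held 95.6% to 97.5% of stranded gene reads. Rows that name no gene held 25.7% to 39.9% of reads in KO and 25.6% to 47.8% in WT and were left out, so reads that match several genes are missing. Both runs of WT replicate 3 (27351 and 558 gene reads) were summed.

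Identifiers without version were matched to GENCODE M21 (46488 of 46983 genes, all 57 members, 40 of them at the same version), which also gave positions and merged exon lengths. The filter was filterByExpr and the scaling TMM. The test was edgeR's (4.0.16; robust glmQLFit, then glmQLFTest, two-sided, genotype as the only term), over all 12292 kept genes with Benjamini-Hochberg adjustment. Standard errors are the log2 fold change over the root of F. The filter can hardly keep a gene read only in WT, because WT replicate 3 is so shallow. Log2 CPM used a prior count of 2. The test was checked on simulated counts with 200 changed genes. These were well-read genes given large changes, so the check does not measure power for scarce genes or small changes. DESeq2 1.42.0 was an alternative.

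The members and gene lists were chosen with earlier results of these data known. Levels are given for any member, library by library from a mean of 1 CPM upwards. Fold changes are given for the 6 tested members of lowest p per direction and for Cxcr4, Cxcr2, Ccr2, Ccr1 and Cx3cr1, and up to 3 genes are named per pathway list. The values of 1 tested receptor gene, which stays in the counts, are not reported here. Other genes set beside a result, such as C1qa, C1qb, C1qc, Elavl1 and Xist, were chosen after their values were seen. Replicate numbers were not used to pair the libraries in the main test. Same-numbered libraries correlated at -0.29, -0.03 and -0.15 in their deviations from the group means across genes. The highest correlations were 0.40 for KO replicate 3 with WT replicate 1 and 0.26 for KO replicate 1 with WT replicate 2. The WT mean includes the shallow WT replicate 3, so these values cannot exclude a pairing of the samples.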

Additional observations from a re-analysis of the deposited data

How the results depend on the processing

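No chemokine or receptor gene was called under any of the 14 alternatives or at an adjusted p of 0.1, with 24 to 42 members tested. The count of all called genes did move. It was 0 as reported, 9 without a filter on low counts, 1 with DESeq2, 12 with DESeq2 without WT replicate 3 and 4 at an adjusted p of 0.1, and between 0 and 5 when each library was left out in turn. With the replicate number as a block it was 13, although same-numbered libraries did not deviate together. Of 196 fold changes of the 14 members that the naming rule chose, 186 kept their direction and 10 turned. Under the replicate block Ccl8 was at 0.13. The others turned when 1 library was left out. Their log2 fold changes over the 6 such fits ran from -0.047 (without KO replicate 2) to 0.66 for Ccl6, from -0.19 (without KO replicate 2) to 0.57 for Cxcr2, from -0.37 (without KO replicate 2; -0.035 without WT replicate 1) to 0.54 for Ccr2, from -1.86 to 0.059 (without WT replicate 1) for Cxcl16, from -2.52 to 1.33 (without WT replicate 1) for Cx3cr1, from -2.08 to 1.59 (without WT replicate 1) for Cxcl10, from -3.66 to 4.35 (without WT replicate 2) for Ccl8 and from -3.54 to 3.22 (without WT replicate 2) for Ccl24. The cause was not tested. The smallest adjusted p of these members under any alternative was 0.84. At an unadjusted p under 0.05, leaving out a library brought up to 3 of 24 members (Cx3cr1, Cxcl10 and Cxcl16, without KO replicate 3, where 2.72% of all genes passed). Without WT replicate 2 it brought 2 of 26 (Ccl22 and Cxcl16, beside 2.38% of all genes), and Ccl22 then had 0 WT reads. Without KO replicate 1 it brought 1 of 25 (Ccl2, beside 1.69%), and without WT replicate 1 it brought 1 of 24 (Ccr1, beside 5.9%). The block brought 3 of 24 (Ccr10, Cx3cr1 and Cxcl16, where 2.59% of all genes passed). With DESeq2 on all 6 libraries the median log2 fold change of all genes was -0.32 and that of the 42 members -0.77. A level below 89.6 CPM cannot be read from WT replicate 3, so each WT level rests on 2 libraries.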

Other observations

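Genes tied to the switching of chemokine transcription, activators and inhibitors alike, varied between libraries of 1 genotype. Of 27 tested genes of that list, 0 passed edgeR's quasi-likelihood test in either direction, 0 had an unadjusted p under 0.05 and DESeq2 called 0. Among all tested genes 0.0% passed, 1.45% had an unadjusted p under 0.05 and DESeq2 called 0.0045% of its genes. The list's log2 fold changes had a median of -0.13, with 8 above and 19 below 0. For 14 of the 27 the 2 highest deep libraries were KO replicate 3 and WT replicate 1, the highest pair of 29.3% of all tested genes. The pair was not particular to this list, as it was highest for 18 of the 27 genes that carry the receptor signal. Tnf, the cytokine tumour necrosis factor, stood at 77.2, 101 and 265 CPM in KO replicates 1, 2 and 3, against 348 and 66.4 CPM in WT replicates 1 and 2. Tnfaip3, an inhibitor of NF-kB that NF-kB itself induces, stood at 42.9, 78.9 and 163 CPM in KO, against 198 and 37.4 CPM in WT. Il1b stood at 10.7, 29.7 and 50.1 CPM in KO, against 57.7 and 15.8 CPM in WT. Tnf, Tnfaip3 and Il1b were picked with their values known. The 3 genes of lowest p were Il6 (log2 fold change 1.13, SE 0.72), Nfkbia (-0.36, SE 0.36) and Ifngr1 (-0.26, SE 0.34). Il6 stood at 76.2, 358 and 39.7 CPM in KO, against 63.1 and 90.7 CPM in WT, with KO replicate 2 alone above the rest.

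Receptors for other chemoattractants were read in both genotypes. Of 14 tested, 0 passed edgeR's test in either direction, 0 had an unadjusted p under 0.05 in it and DESeq2 called 0. The shares of all genes are those given above. The median log2 fold change was 0.04, with 7 above and 7 below 0. The lowest p belonged to Ltb4r2, a leukotriene B4 receptor (1.30, SE 0.66), Cysltr1, a cysteinyl leukotriene receptor (-0.86, SE 0.62), and P2ry12, an ADP receptor (-0.74, SE 0.58). For 8 of the 14 the 2 highest deep libraries were KO replicate 3 and WT replicate 1, the highest pair of 29.3% of all tested genes.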
